A study of Mus musculus with 37 samples.

Results

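Neonatal rat ventricular myocytes (NRVM) kept in medium labelled AMP were compared directly with NRVM kept in medium labelled ENPP1+ATP, each as 3 RNA-seq libraries taken after 24 h. These 6 libraries, chosen by their labels alone, were part of 15 NRVM libraries and of 37 samples in the whole series. The other NRVM libraries were 3 each in vehicle, ATP and ENPP1 medium, and they served here to place the 6 libraries. All NRVM came from wild-type Sprague-Dawley rats, although the organism field of the labels names the mouse. Cells were seeded sparsely, moved to a serum-free medium with insulin, transferrin and selenium, and then given the treatment medium. Per the labels that medium was conditioned, and the study describes it as medium collected from other NRVM that had been given the named agents. The labels give no dose of AMP, ATP or ENPP1, and they do not say that the 3 libraries of a medium came from separate cultures, so the p-values measure the spread between these libraries, which may be technical.

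ENPP1 is a membrane enzyme that cuts extracellular ATP into AMP and pyrophosphate. AMP in the medium can be cut further to adenosine by CD73, the product of Nt5e, and adenosine acts on its own receptors or is taken up and phosphorylated again by adenosine kinase. AMP is thus both the agent of one medium and a product of the agents of the other. What either medium held when it reached the cells was not measured here. The comparison asks which genes still told the media apart.

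The 6 libraries held between 13980922 and 15615626 counts, and between 16202 and 16327 genes had at least 1 count in each. In a principal component analysis of all 15 libraries, PC1 (60.4% of the variance) put AMP between -27.5 and -21.2 and ENPP1+ATP between -27.2 and -23.0, so that the media overlapped there, with vehicle and ENPP1 at 41.1 to 44.2. PC2 (9.13%) separated them, with AMP between -19.9 and -11.7, ENPP1+ATP between -10.9 and -9.55 and ATP between 19.9 and 25.5. AMP replicate 3 stood apart on PC3 (4.70%), at 28.4 against 1.98 and 2.44 for the other AMP libraries. Its summed endothelial markers were 115 CPM (counts scaled to a common library size), against 48.4 and 56.0 CPM in AMP replicates 1 and 2 and 52.5 to 57.5 CPM in ENPP1+ATP. Cardiomyocyte markers summed to between 29489 and 35572 CPM in the 6 libraries, and all 10 of them were detected in every library. Fibroblast markers were present as well, at between 8293 and 12320 CPM, so the cultures labelled as myocytes also held RNA of collagen-producing cells. Of 10 macrophage markers, 5 had at most 10 counts in every one of the 6 libraries, and 1 of these had no count in any of them. In such bulk samples fewer cells of a type and less RNA per cell cannot be told apart.

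Of 13461 genes tested across all 15 libraries, 1300 (9.66%) differed between AMP and ENPP1+ATP at an adjusted p under 0.05 (edgeR's quasi-likelihood test, Benjamini-Hochberg adjustment). Of these, 782 (5.81%) were higher in AMP and 518 (3.85%) were higher in ENPP1+ATP. The differences were mostly small: the median absolute log2 fold change of the called genes was 0.30, and 33 genes were over 2-fold higher in AMP and 32 were over 2-fold higher in ENPP1+ATP. Against vehicle the same fit called 7703 genes (57.2%) for AMP and 7538 genes (56.0%) for ENPP1+ATP, comparisons that share the vehicle libraries. For ENPP1+ATP 28.6% of genes were higher and 27.4% lower than in vehicle, and for AMP 29.2% were higher and 28.0% lower. Each medium was thus far from vehicle, and a smaller set of genes parted them from each other. Without AMP replicate 3 the counts were 753 and 464, and 648 and 363 of the original calls were among them.

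**Figure D1:**
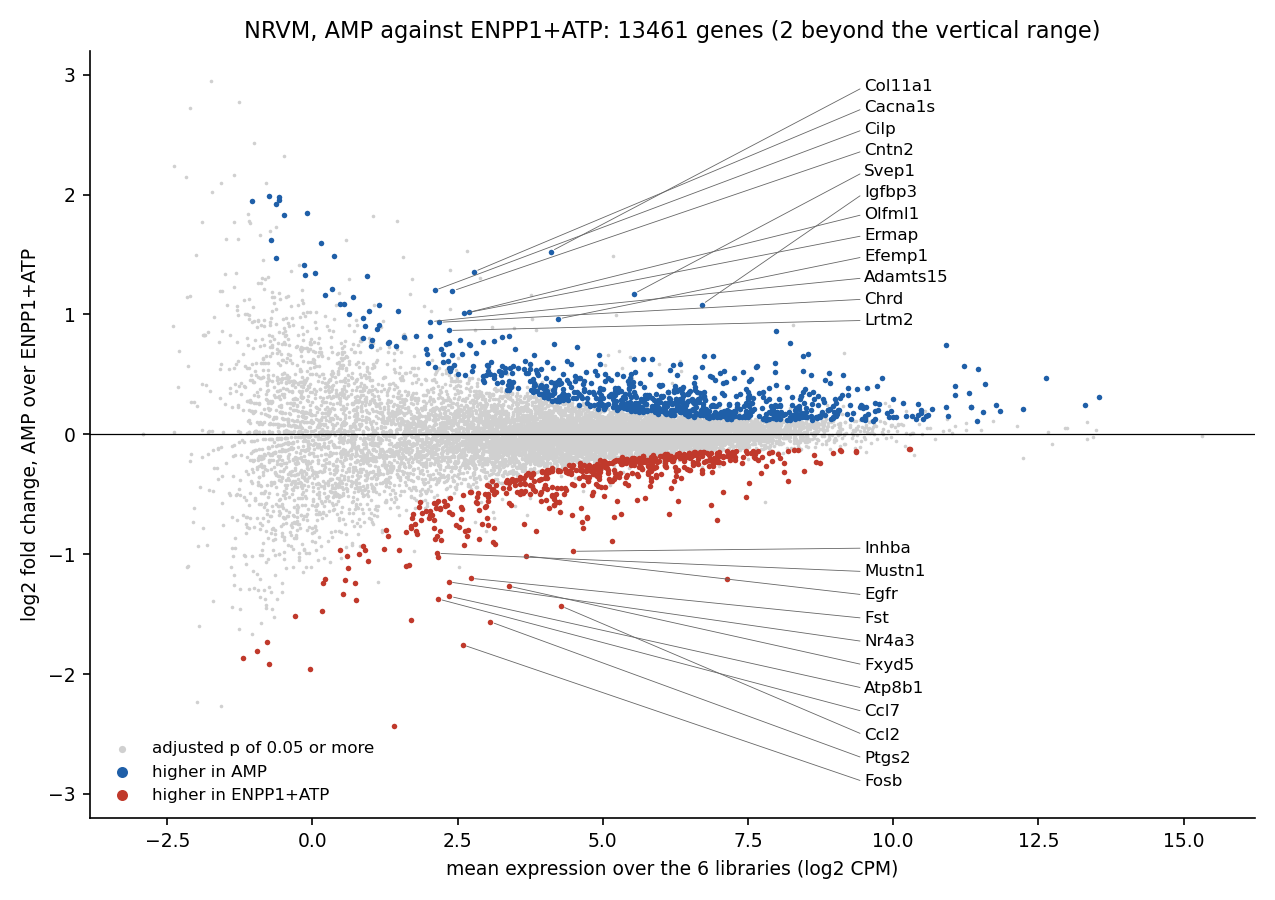
Each of the 13461 tested genes by its mean expression over the 6 libraries (horizontal, log2 CPM) and its log2 fold change of AMP over ENPP1+ATP (vertical), with blue points for genes called higher in AMP, red points for genes called higher in ENPP1+ATP and grey points for genes not called; 2 genes lie beyond the vertical range. The 23 labelled genes are among those with the largest differences of the called genes with a mean of at least 2 on the log2 CPM scale and no overlap between the libraries of the media, and most called genes lie well inside a 2-fold difference.

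Among genes with a mean of at least 2 on the log2 CPM scale and no overlap between the libraries, those furthest above in AMP included several of the extracellular matrix and of secreted regulators. Col11a1, a fibrillar collagen chain, was at 30.6, 30.1 and 26.2 CPM in the AMP libraries and at 9.16, 10.3 and 10.7 CPM in the ENPP1+ATP libraries, a 2.88-fold difference (log2 fold change 1.52 ± 0.09 SE, adjusted p = 7.99e-17). Svep1, a large adhesion protein of the matrix, was at 69.5, 73.7 and 64.9 CPM in AMP and at 31.8, 27.5 and 33.1 CPM in ENPP1+ATP (2.25-fold, adjusted p = 4.97e-09). Igfbp3, which binds insulin-like growth factors, was at 147, 151 and 156 CPM in AMP and at 72.1, 68.7 and 74.1 CPM in ENPP1+ATP (2.12-fold, adjusted p = 4.32e-13). Of all tested genes, 13.6% had every AMP library above every ENPP1+ATP library, and 11.6% had the reverse. By the rule that chose them, Col11a1, Svep1 and Igfbp3 had no overlap between the libraries of the media. Their levels in the other media were not alike: Col11a1 and Svep1 had means of 76.5 ± 3.04 and 122 ± 3.42 CPM in vehicle (SD, n = 3), above both media, whereas Igfbp3 had a mean of 85.1 ± 5.48 CPM in vehicle (SD, n = 3), between them. Cilp, a matrix protein of cartilage and of cardiac fibroblasts, was at 6.98, 5.95 and 6.1 CPM in AMP and 2.47, 3.07 and 2.71 CPM in ENPP1+ATP (2.3-fold, adjusted p = 5.4e-06). Efemp1, a fibulin, was at 25.7, 28.7 and 23.9 CPM against 12.6, 15.1 and 12.5 CPM (1.95-fold, adjusted p = 4.48e-10). Chrd, an extracellular antagonist of bone morphogenetic proteins, was at 6.65, 6.41 and 5.26 CPM against 2.82, 3.26 and 3.49 CPM (1.91-fold, adjusted p = 7.25e-05), and the protease Adamts15 was 1.92-fold higher in AMP (adjusted p = 4.37e-04).

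Among the same 12 genes were also some of muscle and nerve. Cacna1s, the calcium channel subunit of skeletal muscle excitation-contraction coupling, was at 11.1, 10.2 and 11.6 CPM in AMP and 3.59, 3.32 and 5.88 CPM in ENPP1+ATP (2.56-fold, adjusted p = 6.04e-08), with ATP medium at 8.97, 7.06 and 7.53 CPM between them. Cntn2, a neural cell adhesion molecule that also marks the cardiac conduction system, was at 8.23, 7.6 and 7.71 CPM against 3.52, 3.07 and 3.68 CPM (2.29-fold, adjusted p = 5.74e-07). Vehicle libraries were at 9.63, 9.85 and 8.29 CPM, just above AMP, and the ENPP1+ATP libraries were the lowest of the 5 media. Ermap, an erythroid membrane protein, was at 9.48, 7.99 and 8.48 CPM in AMP, 5.07, 2.75 and 5.11 CPM in ENPP1+ATP and 2.82, 2.62 and 2.05 CPM in vehicle. The remaining genes of this group, Olfml1 and Lrtm2, were 2.02-fold and 1.82-fold higher in AMP.

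Among genes with a mean of at least 2 on the log2 CPM scale and no overlap between the libraries, Fosb, Ptgs2 and the chemokines Ccl2 and Ccl7 had the largest differences in the other direction. Fosb, an AP-1 subunit induced within minutes of a stimulus, was at 2.76, 3.96 and 2.87 CPM in AMP and at 10.1, 10.3 and 12 CPM in ENPP1+ATP (3.38-fold higher in ENPP1+ATP, log2 fold change -1.76 ± 0.17 SE, adjusted p = 1.5e-10). Vehicle libraries were at 2.34, 2.41 and 2.21 CPM, just below the AMP libraries. Ptgs2, the inducible cyclooxygenase, was at 4.47, 3.83 and 6.17 CPM in AMP and 13.5, 15.5 and 13.7 CPM in ENPP1+ATP (2.96-fold, adjusted p = 7.35e-09). The monocyte chemokine Ccl2 was at 13, 10.4 and 11.9 CPM in AMP and 33, 34.3 and 27.9 CPM in ENPP1+ATP (2.7-fold, adjusted p = 2.6e-07). All 3 libraries of each of the other 4 media lay below 15 CPM for Ccl2, so that ENPP1+ATP stood alone for this gene. Ccl7, its neighbour in function, was at 2.17, 2.44 and 3.58 CPM against 7.04, 6.45 and 7.69 CPM (2.59-fold, adjusted p = 6.93e-07). Nr4a3, an orphan nuclear receptor that responds to cAMP and calcium, was at 2.83, 3.17 and 3.72 CPM in AMP and 7.04, 8.81 and 6.91 CPM in ENPP1+ATP (2.35-fold, adjusted p = 2.01e-06).

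Inhba, the activin A subunit, was also among these genes. It was at 14.1, 15.1 and 18.3 CPM in AMP and 30.9, 32.8 and 29.7 CPM in ENPP1+ATP (1.97-fold higher in ENPP1+ATP, adjusted p = 3.07e-10). Its levels in ATP medium, 58.5, 56.7 and 63.9 CPM, and in vehicle, 44.8, 39.1 and 39.3 CPM, were above both. Fst, follistatin, which binds activin, was at 4.15, 3.83 and 4.84 CPM in AMP and 11.2, 9.58 and 8.72 CPM in ENPP1+ATP (2.3-fold, adjusted p = 2.4e-07). Egfr was at 8.23, 8.19 and 10.3 CPM in AMP and 19.9, 17.6 and 16.5 CPM in ENPP1+ATP (2.02-fold, adjusted p = 5.01e-10), with vehicle above both at 34.3, 30.8 and 33.4 CPM. Fxyd5, a regulator of the sodium pump, was 2.41-fold higher in ENPP1+ATP (adjusted p = 1.53e-05), the flippase subunit Atp8b1 was 2.55-fold higher (adjusted p = 1.97e-07) and Mustn1, a small nuclear protein of muscle and bone, was 1.99-fold higher (adjusted p = 4.78e-04).

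**Figure D2:**
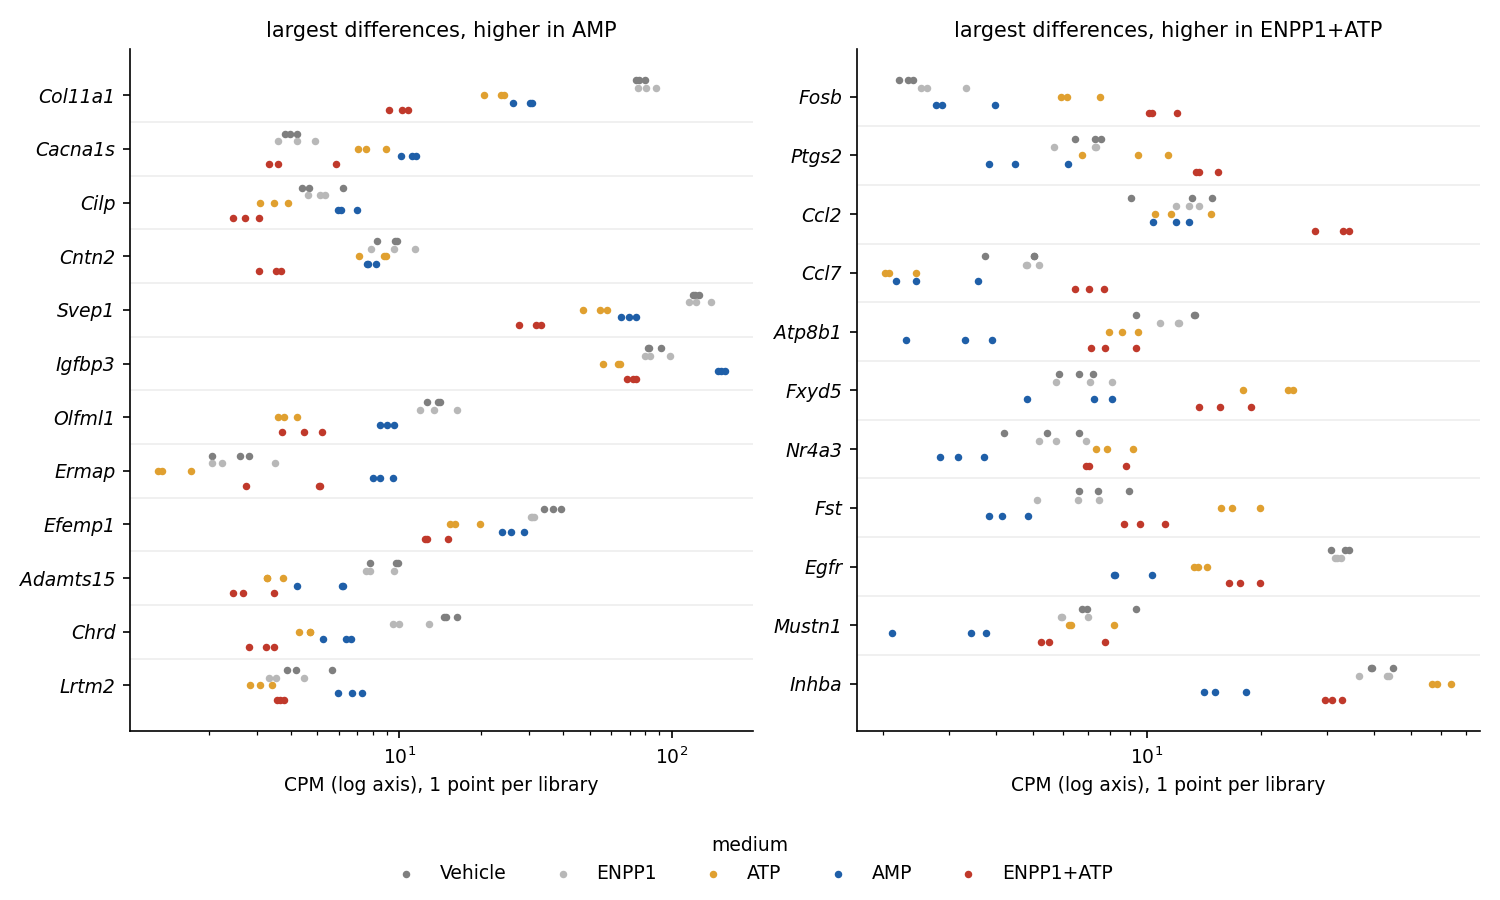
Expression (horizontal, CPM on a log axis) of 12 genes higher in AMP and 11 genes higher in ENPP1+ATP with the largest differences, 1 point for each library of the 5 media, 3 libraries per medium. Blue AMP points and red ENPP1+ATP points are apart for every gene by the rule that chose them, and the grey vehicle and ENPP1 points and the orange ATP points show that some genes, such as Col11a1, Egfr and Inhba, were highest outside both media, and others, such as Igfbp3 or Ccl2, were highest in AMP or in ENPP1+ATP.

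Gene lists placed these differences in programs. A count of a list's called genes is to be read against the 5.81% of all tested genes higher in AMP and the 3.85% higher in ENPP1+ATP, and its median log2 fold change against a median of 0.00 over all genes. Of the called genes in the sarcomere, cholesterol synthesis, fatty acid synthesis, S phase and G2 and M phase lists, every one was higher in AMP, and in the matrix list 31 of 35 were. Of the called immediate early genes 11 of 13 were higher in ENPP1+ATP, as were all 8 called inflammatory genes. Except for the sarcomere, cholesterol, fatty acid and S phase lists, most genes of these lists were not called. Some genes belong to more than 1 list and were counted in each.

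**Figure D3:**
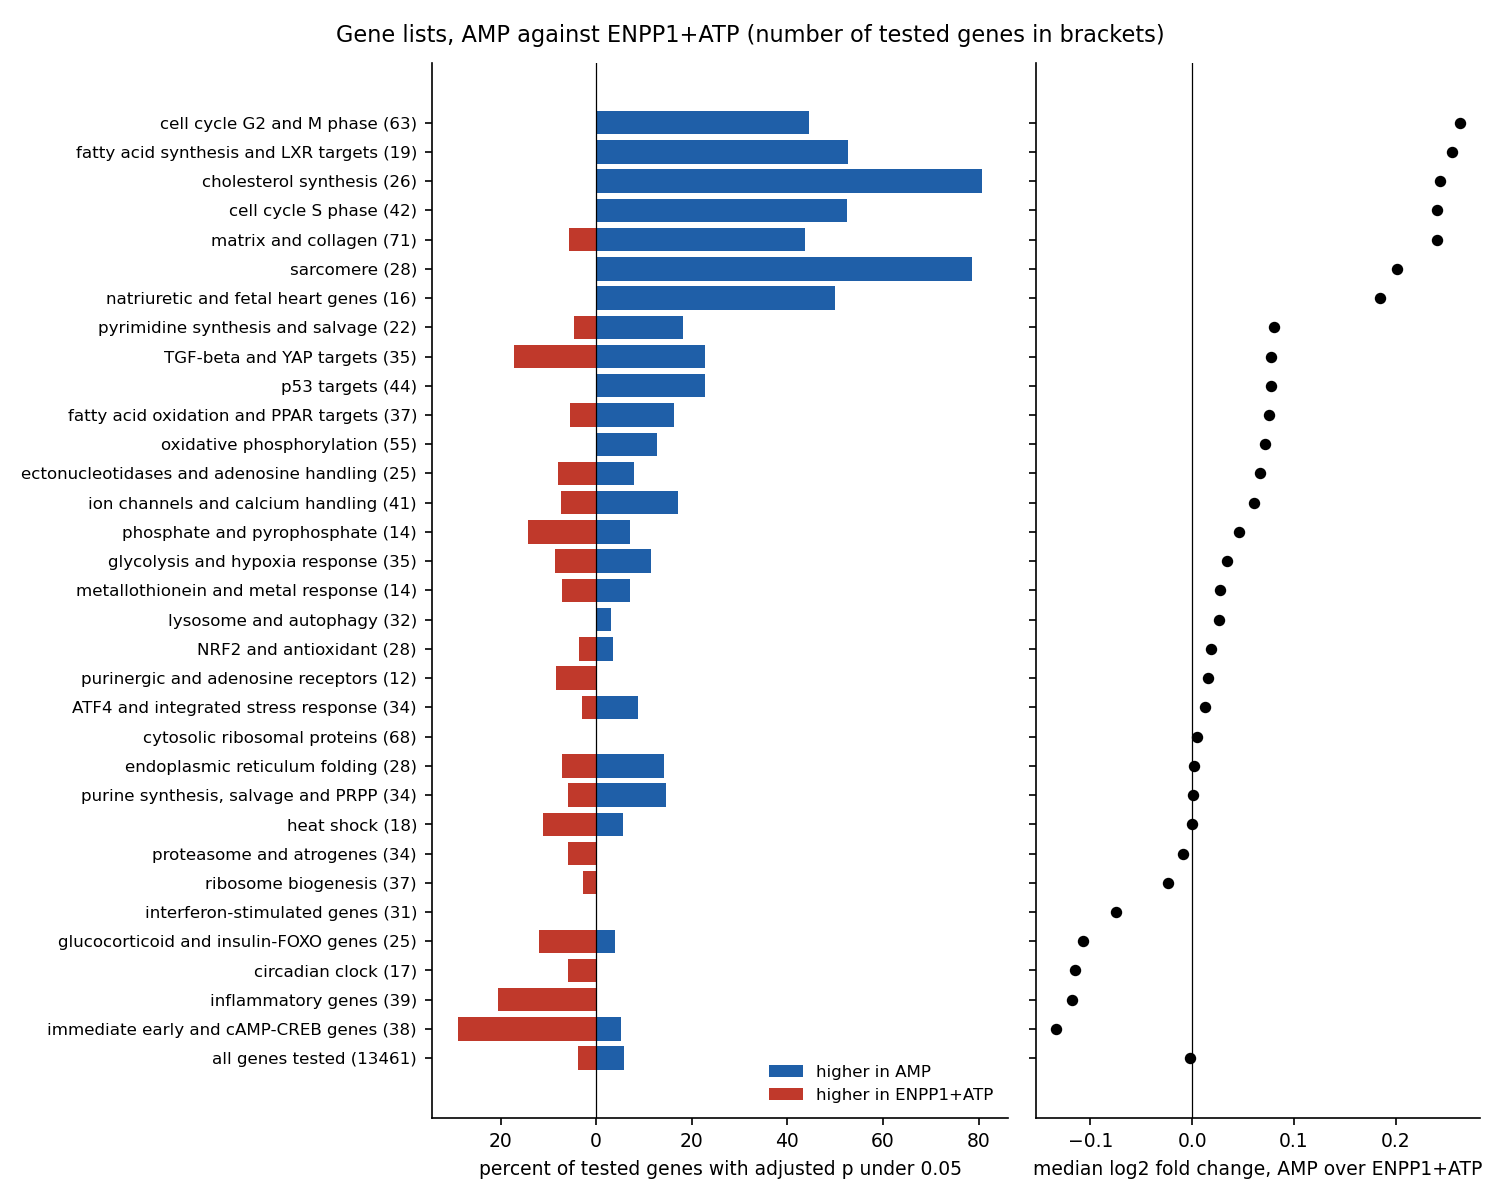
For all genes and for each gene list other than those of cell type markers (number of tested genes in brackets), the percent of its tested genes called higher in AMP (blue, to the right) or in ENPP1+ATP (red, to the left), and at the right the median log2 fold change of AMP over ENPP1+ATP. Cholesterol synthesis (21 of 26) and sarcomere (22 of 28) had the largest shares called, and immediate early and cAMP-CREB genes the lowest median of the lists drawn (-0.13).

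Of 28 tested sarcomere genes, 22 were called higher in AMP and none higher in ENPP1+ATP, all 28 log2 fold changes were above 0, and their median was 0.20. Skeletal alpha-actin, Acta1, which the fetal and the stressed heart express, was at 2324, 2607 and 2508 CPM in AMP and 1478, 1406 and 1562 CPM in ENPP1+ATP (1.67-fold, log2 fold change 0.74 ± 0.05 SE, adjusted p = 1.92e-13). AMP libraries were the highest of the 5 media for Acta1, since ATP, ENPP1 and vehicle libraries lay between 1084 and 1232 CPM. Ankrd1, a stretch-responsive ankyrin repeat protein, was at 3368, 3607 and 3644 CPM in AMP and 2648, 2530.4 and 2760.0 CPM in ENPP1+ATP (1.34-fold, adjusted p = 1.27e-10), with vehicle above both at 4303, 4028 and 4163 CPM. Csrp3, a Z-disc LIM protein, was at 404, 427 and 432 CPM against 339.9, 325 and 337 CPM (adjusted p = 3.87e-07), and Xirp2, an actin-binding protein of the intercalated disc, was at 401, 441 and 480.3 CPM against 262, 257 and 322 CPM (adjusted p = 0.0047, and 0.0547 when the 6 libraries were fitted alone). Summed over the list, the libraries held 65460 to 69517 CPM in AMP, 56246 to 57790 CPM in ENPP1+ATP, 41169 to 43452 CPM in ATP and 66483 to 70175 CPM in vehicle, so that the AMP libraries overlapped with vehicle and the ENPP1+ATP libraries lay between vehicle and ATP. The sums of the 10 cardiomyocyte markers were 33674 to 35572 CPM in AMP and 29489 to 30699 CPM in ENPP1+ATP, but 7 of these markers are themselves in the sarcomere list. Of the other markers, Nppa was called higher in AMP, and Pln and Ryr2, of calcium handling, were not called, and the part of myocyte number in the sarcomere result was not tested.

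Natriuretic peptides and other genes of the fetal heart program pointed the same way, with 8 of 16 called higher in AMP, none higher in ENPP1+ATP and a median of 0.18, and without AMP replicate 3 the former count was 9. The called genes of this list include Acta1 and Ankrd1, which are also in the sarcomere list, so the lists are not separate evidence. Nppa, atrial natriuretic peptide, was at 2361, 2412 and 2590.5 CPM in AMP and 1874, 1832 and 1863 CPM in ENPP1+ATP (1.32-fold, adjusted p = 2.27e-10), below the 3974, 3876 and 4084 CPM of vehicle. Nppb was at 492, 576 and 609 CPM against 408, 377 and 463 CPM (adjusted p = 0.0139), a call that was lost without AMP replicate 2 (adjusted p = 0.0565) or ENPP1+ATP replicate 1 (adjusted p = 0.0539) and when the 6 libraries were fitted alone (adjusted p = 0.141). Nppc, C-type natriuretic peptide, was detected at a low level, with 1.71, 1.72 and 1.61 CPM in AMP and 0.423, 0.639 and 0.582 CPM in ENPP1+ATP (adjusted p = 0.00845, and 0.0533 without ENPP1+ATP replicate 1). Ion channel and calcium handling genes were mixed: of 41 tested, 7 were called higher in AMP and 3 higher in ENPP1+ATP, with a median of 0.06. The count in AMP was 4 without AMP replicate 1 or ENPP1+ATP replicate 1 and 3 without ENPP1+ATP replicate 3, and the count in ENPP1+ATP was 1 without ENPP1+ATP replicate 2. Casq1, a calcium store protein, was at 46.3, 54 and 50.1 CPM in AMP and 38, 34.6 and 42.5 CPM in ENPP1+ATP (adjusted p = 2.76e-04), and Asph was 1.2-fold higher in AMP (adjusted p = 0.00255).

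Of 26 tested genes of cholesterol synthesis and its control, 21 were called higher in AMP and none higher in ENPP1+ATP, with a median of 0.24 and all 26 log2 fold changes above 0. Dhcr7, which reduces the last sterol precursor to cholesterol, was at 86.2, 88.6 and 89 CPM against 71.8, 66.9 and 67.1 CPM (adjusted p = 1.23e-06), Nsdhl was at 111, 113 and 108 CPM against 89.4, 81.4 and 88.9 CPM (adjusted p = 7.16e-07) and Acat2, a cytosolic thiolase at the entry of the pathway, was at 72.5, 75 and 71.2 CPM against 53.5, 53.6 and 58.7 CPM (adjusted p = 9.13e-07). In vehicle Dhcr7 was at 92.1, 87.2 and 85.5 CPM, overlapping with AMP. The ENPP1+ATP libraries were the lowest of the 5 media for Dhcr7 and Acat2. Fatty acid synthesis genes and targets of the liver X receptor had 10 of 19 called higher in AMP, none higher in ENPP1+ATP and a median of 0.26, and without AMP replicate 3 they had 8 called and a median of 0.20. Fasn, fatty acid synthase, was at 1007, 1087 and 1078 CPM in AMP, 746, 737 and 808 CPM in ENPP1+ATP and 1267, 1223 and 1248 CPM in vehicle (1.38-fold between AMP and ENPP1+ATP, adjusted p = 1.41e-11). Scd, the stearoyl-CoA desaturase, was at 155, 170.0 and 163 CPM in AMP and 117, 113 and 132 CPM in ENPP1+ATP (adjusted p = 4.01e-07), both far below the 579, 595 and 660.0 CPM of vehicle. The desaturase Fads2 was 1.29-fold higher in AMP (adjusted p = 9.88e-07) and the cholesterol exporter Abca1 was 1.27-fold higher (adjusted p = 0.00115).

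Of 42 tested S phase genes, 22 were called higher in AMP and none higher in ENPP1+ATP, with a median of 0.24. Tk1, thymidine kinase, was at 66.5, 66.6 and 67.7 CPM in AMP and 50.4, 47.1 and 44.2 CPM in ENPP1+ATP (1.42-fold, adjusted p = 1.66e-07), Rrm2, a ribonucleotide reductase subunit, was at 107, 108 and 116 CPM against 82.3, 81.1 and 82.5 CPM (adjusted p = 9.64e-09), and cyclin E2, Ccne2, was 1.39-fold higher in AMP (adjusted p = 1.49e-04). Of 63 tested G2 and M phase genes, 28 were called higher in AMP and none higher in ENPP1+ATP, with a median of 0.26. Top2a, the topoisomerase of dividing cells, was at 161, 146 and 159 CPM in AMP and 107, 108 and 112 CPM in ENPP1+ATP (1.43-fold, adjusted p = 7.28e-08), and the mitotic kinase Melk was at 15.7, 16.5 and 16.3 CPM against 10.6, 12.3 and 10.2 CPM (adjusted p = 3.35e-04). Mybl2, a transcription factor of the cycle, was 1.36-fold higher in AMP (adjusted p = 3.1e-05), and the kinase Pbk was 1.34-fold higher (adjusted p = 0.00154). Summed G2 and M phase genes gave 2781 to 2851 CPM in AMP, 2298 to 2341.5 CPM in ENPP1+ATP, 2543 to 2644 CPM in ATP and 2355 to 2405 CPM in vehicle. Summed S phase genes gave 1999.8 to 2048 CPM in AMP, 1688 to 1719 CPM in ENPP1+ATP, 1963.5 to 1984 CPM in ATP and 1387 to 1437 CPM in vehicle, so that the ENPP1+ATP libraries lay above vehicle for S phase genes and below every vehicle library for G2 and M phase genes. Bulk RNA does not show which of the cells in the dish held these transcripts.

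Targets of p53, the damage-response factor, had 10 of 44 called higher in AMP, none higher in ENPP1+ATP and a median of 0.08. Plk2, a kinase induced by p53 and by other stimuli, was at 157, 157 and 174 CPM in AMP and 111, 111 and 117 CPM in ENPP1+ATP (1.44-fold, adjusted p = 3.53e-09). Gadd45g, Btg2 and Gtse1 were 1.3-fold, 1.23-fold and 1.22-fold higher in AMP (adjusted p = 0.00291, 6.72e-05 and 3.3e-05). Gtse1 is itself a gene of the dividing cell. Cdkn1a, the p21 inhibitor of the cycle, was at 565, 565 and 538 CPM in AMP and 498, 473 and 516 CPM in ENPP1+ATP (adjusted p = 0.00396, and 0.0605 without ENPP1+ATP replicate 2), and its level in vehicle was 239, 242 and 241 CPM. Mdm2, which degrades p53, was at 160.2, 161 and 148 CPM against 154, 150.5 and 152 CPM (adjusted p = 0.664), and the libraries overlapped. The death effectors Bax and Bak1 had log2 fold changes of 0.13 ± 0.05 and 0.10 ± 0.05 SE (adjusted p = 0.0805 and 0.232), and the survival gene Bcl2 had 0.06 ± 0.10 SE (adjusted p = 0.807). Without AMP replicate 3 the log2 fold change of Bax was 0.18 (adjusted p = 0.0239).

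**Figure D4:**
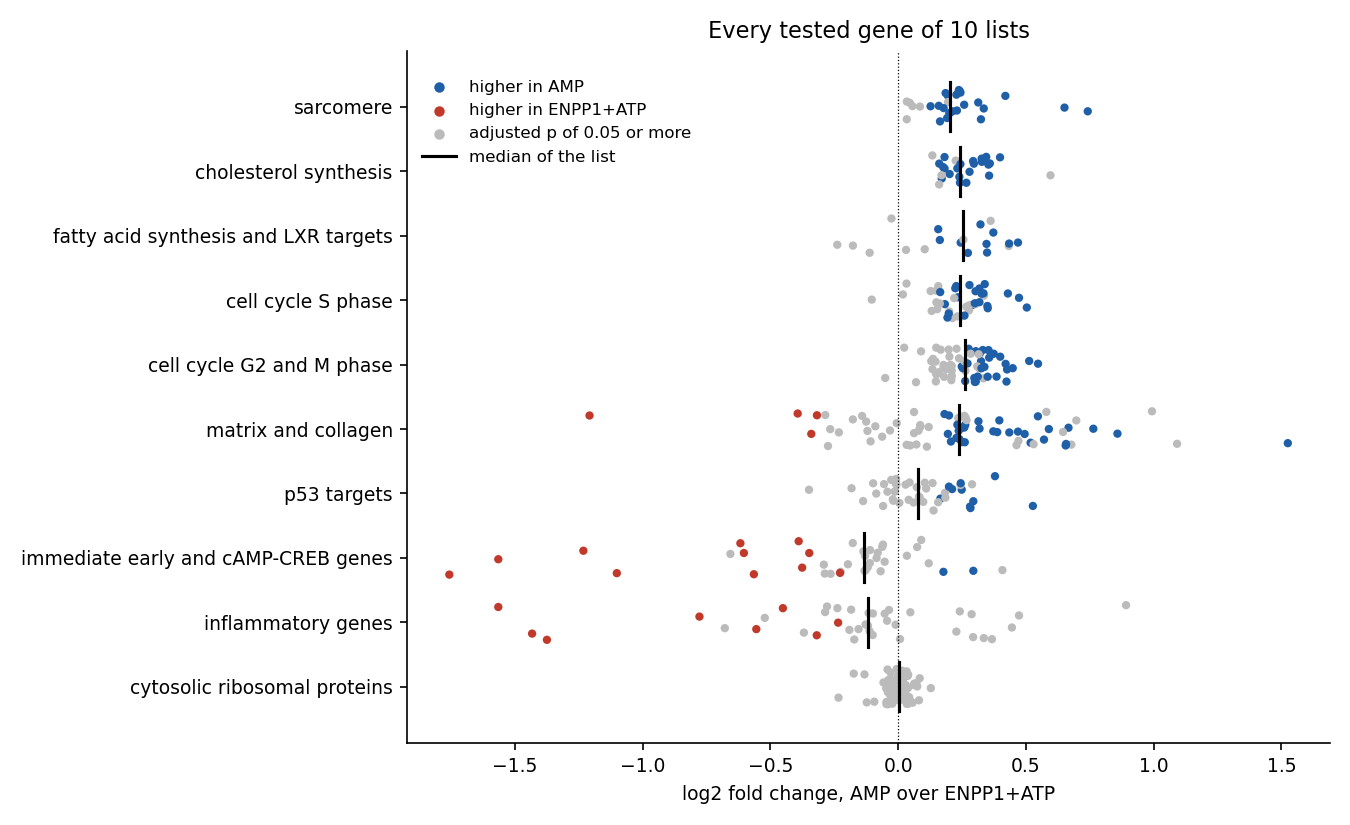
Every tested gene of 10 gene lists by its log2 fold change of AMP over ENPP1+ATP (horizontal), in blue where called higher in AMP, in red where called higher in ENPP1+ATP and in grey where not called, with the median of each list as a black line; the vertical scatter within a list carries no value. All sarcomere and cholesterol synthesis genes lie to the right of 0, immediate early and inflammatory lists have a tail to the left that reaches -1.76 for Fosb, and ribosomal protein genes stay between -0.23 and 0.13.

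Of 71 tested extracellular matrix genes, 31 were called higher in AMP and 4 higher in ENPP1+ATP, with a median of 0.24. Without AMP replicate 3, the counts were 30 and 6 and the median was 0.19. Of the 6 compared libraries, AMP replicate 3 had the highest sums of endothelial, fibroblast, and smooth muscle or pericyte markers (115, 12320 and 3141 CPM). Col1a1 was at 7400.3, 7433 and 7662 CPM in AMP and 5302, 5422 and 5526 CPM in ENPP1+ATP (1.38-fold, adjusted p = 2.25e-12) and Col3a1 was at 3253, 3301 and 3622 CPM against 2222, 2375 and 2367 CPM (1.46-fold, adjusted p = 3.5e-11). Both collagens were far below vehicle in both media, with 15735, 16790.0 and 16152 CPM of Col1a1 and 6993, 7291 and 7331 CPM of Col3a1 in the vehicle libraries. Nid1, a basement membrane linker, was at 383, 386 and 400.2 CPM in AMP and 220.1, 237 and 231 CPM in ENPP1+ATP (1.7-fold, adjusted p = 7.99e-17), and Col14a1 was at 347, 371 and 305 CPM against 187, 186 and 192 CPM (1.81-fold, adjusted p = 2.15e-05). The count of 4 genes in the other direction was 2 without AMP replicate 1 or without ENPP1+ATP replicate 2. Summed over the list, AMP libraries held 33655 to 37031 CPM, ENPP1+ATP libraries 26659 to 28133 CPM, ATP libraries 32684 to 36488 CPM and vehicle libraries 60510 to 63172 CPM. Of 9 tested fibroblast markers, 3 (Col1a1, Col3a1 and Postn) were called higher in AMP, and the median was 0.24. These 3 are also in the matrix list and made up nearly all of the summed markers, which were 11543 to 12320 CPM in AMP and 8293 to 8757 CPM in ENPP1+ATP. None of the other 6 (Pdgfra, Dcn, Lum, Tcf21, Dpt and Pdgfrl) was called, and Pdgfra, the receptor that marks fibroblasts, was at 34.7, 31.4 and 28 CPM in AMP and 25.6, 29.3 and 27.1 CPM in ENPP1+ATP (adjusted p = 0.296), where the libraries overlapped. The call of Postn was lost without AMP replicate 2 or 3 (adjusted p = 0.0507 and 0.0519) or ENPP1+ATP replicate 2 (adjusted p = 0.0557). The part of fibroblast number in the matrix result was not tested.

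Ligands of the TGF-beta family went both ways. Tgfb2 was at 180.2, 177 and 187 CPM in AMP and 119, 134 and 138 CPM in ENPP1+ATP (1.39-fold higher in AMP, adjusted p = 3.2e-06). Tgfb1 was at 25.3, 25.4 and 34.1 CPM in AMP and 36.1, 41.2 and 37.4 CPM in ENPP1+ATP (1.36-fold higher in ENPP1+ATP, adjusted p = 6.68e-04), and no library of either medium overlapped with the other. The list of TGF-beta and YAP targets that holds them had 8 of 35 called higher in AMP and 6 higher in ENPP1+ATP, and its median of 0.08 became -0.01, with 8 and 9 called, without AMP replicate 3.

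**Figure D5:**
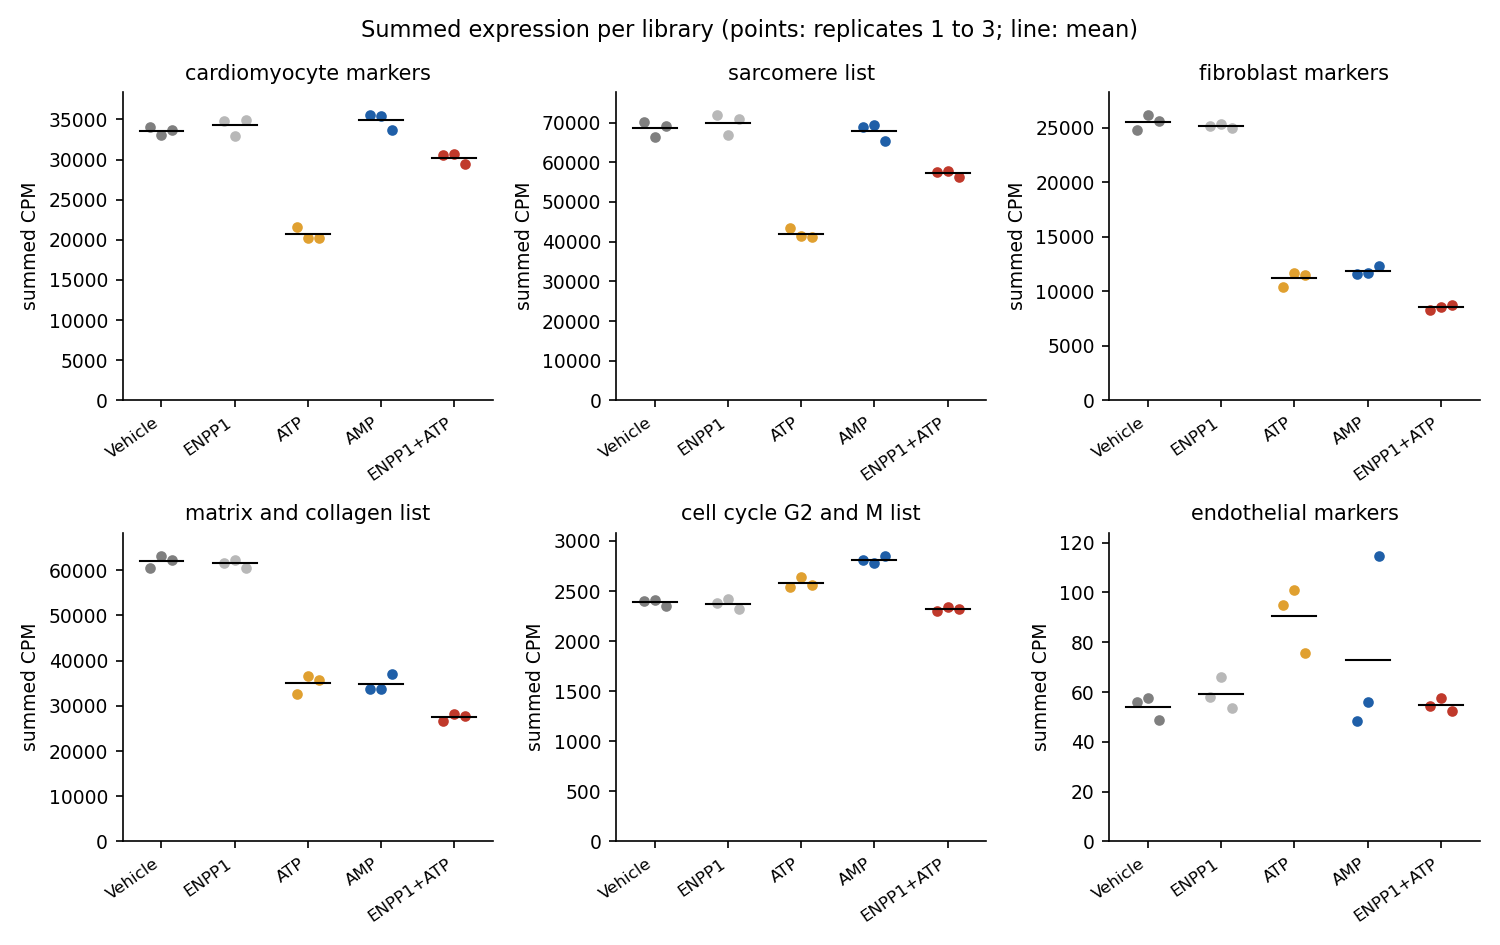
Summed expression (vertical, CPM, from 0) of 6 gene lists in each of the 15 libraries, with 3 points per medium for replicates 1 to 3 and a line at their mean. AMP and ENPP1+ATP points are apart for cardiomyocyte markers, sarcomere, fibroblast markers, matrix and the G2 and M phase list, with AMP above in each, and in the endothelial panel AMP replicate 3 lies at 115 CPM, away from the other AMP libraries.

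Markers of other cell types that the cultures could hold were given the same count. Of 10 epicardial or mesothelial markers, 2 were called higher in ENPP1+ATP (3 without AMP replicate 3) and none higher in AMP, the median was -0.16, and no log2 fold change was above 0. Leaving out each library in turn gave medians between -0.28 and -0.08 and 0 to 3 markers called higher in ENPP1+ATP. Wt1, a transcription factor of the epicardium, was at 15.3, 12 and 11.2 CPM in AMP and 17.8, 19.9 and 16.2 CPM in ENPP1+ATP (adjusted p = 0.00636, and 0.0608 without ENPP1+ATP replicate 2), and Upk1b was at 27, 24.8 and 24.3 CPM against 33.5, 37.9 and 30.2 CPM (adjusted p = 0.0046, and 0.0533 without ENPP1+ATP replicate 2). Of 9 tested endothelial markers, Tek was called higher in AMP (7.9, 8.13 and 13.5 CPM against 5.85, 7.41 and 6.33 CPM), a call lost without AMP replicate 3 (adjusted p = 0.224) and without ENPP1+ATP replicate 1 or 3 (adjusted p = 0.0695 and 0.0542). Flt1 was called higher in ENPP1+ATP (4.65, 5.81 and 6.27 CPM against 2.17, 2.58 and 5.05 CPM), a call lost without AMP replicate 1 or 2 (adjusted p = 0.0871 and 0.0741) or ENPP1+ATP replicate 3 (adjusted p = 0.0545). The calls of Tek and Flt1 were also lost when the 6 libraries were fitted alone (adjusted p = 0.0768 and 0.066). Smooth muscle and pericyte markers had 1 of 10 called, Cspg4, higher in ENPP1+ATP and lost without AMP replicate 1 or 2 or ENPP1+ATP replicate 2 or 3 (adjusted p between 0.0646 and 0.143), 2 were called without AMP replicate 3, and none of 5 tested macrophage markers was called. With single libraries left out, 0 or 1 macrophage marker was called higher in AMP. Of 2 tested red cell genes Slc4a1 was called higher in AMP, at 0.987, 1.45 and 1.26 CPM against 0.423, 0.511 and 0.517 CPM, a call lost without AMP replicate 2 or 3 or any 1 of the ENPP1+ATP replicates (adjusted p between 0.0781 and 0.152). It was lost without the low-count filter as well (adjusted p = 0.0865).

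Most of the called immediate early and cAMP-responsive genes were higher in ENPP1+ATP. Of 38 tested, 11 were called higher in ENPP1+ATP and 2 higher in AMP, with a median of -0.13. Besides Fosb, Ptgs2 and Nr4a3, the largest was Egr2, a zinc finger factor, at 1.51, 2.11 and 2.38 CPM in AMP and 3.73, 4.85 and 4.26 CPM in ENPP1+ATP (2.14-fold, adjusted p = 6.63e-04), with vehicle above both at 5.5, 6.61 and 6.62 CPM. Without AMP replicate 3, 9 were called higher in ENPP1+ATP and 2 higher in AMP, and the median was -0.21. Inflammatory genes had 8 of 39 called higher in ENPP1+ATP, none higher in AMP and a median of -0.12, and without AMP replicate 3 these were 10, 0 and -0.21. Apart from Ptgs2, Ccl2 and Ccl7, the largest was Nfkbiz, an atypical NF-kappaB regulator, at 3.29, 3.9 and 5.89 CPM in AMP and 8.17, 8.3 and 5.88 CPM in ENPP1+ATP (adjusted p = 0.0023), where AMP replicate 3 and ENPP1+ATP replicate 3 overlapped. None of 31 tested interferon-stimulated genes was called in either direction (median -0.07). Their median lay between -0.13 and -0.02 when single libraries were left out, and its sign was opposite in 1 of 12 alternative settings.

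Genes that handle extracellular nucleotides, the subject of the study, were parted in a few members. Enpp1 itself was at 49.6, 51.1 and 54.1 CPM in AMP and 53.7, 54 and 53.1 CPM in ENPP1+ATP (log2 fold change -0.06 ± 0.06 SE, adjusted p = 0.688), and the libraries overlapped. Enpp3, a related ectonucleotidase, was at 8.03, 9.64 and 11 CPM in AMP and 13.5, 17.2 and 17.3 CPM in ENPP1+ATP (1.68-fold higher in ENPP1+ATP, adjusted p = 6.2e-05). Nt5e, which encodes CD73, was at 5.66, 4.49 and 3.44 CPM in AMP and 7.11, 6.58 and 8.53 CPM in ENPP1+ATP (1.63-fold higher in ENPP1+ATP, adjusted p = 0.00959), below the 10.5, 9.92 and 12.2 CPM of vehicle in every library of both media, and the call was lost without AMP replicate 3 (adjusted p = 0.0649) or ENPP1+ATP replicate 3 (adjusted p = 0.0723). The enzymes that remove adenosine went the other way: adenosine kinase, Adk, was at 34.5, 35.3 and 35.9 CPM in AMP and 25.9, 29.2 and 25.8 CPM in ENPP1+ATP (1.31-fold higher in AMP, adjusted p = 9.08e-05), and adenosine deaminase, Ada, was at 6.98, 5.75 and 5.4 CPM against 4.16, 3.9 and 4.52 CPM (adjusted p = 0.0252), a call lost without AMP replicate 1 (adjusted p = 0.181) or without ENPP1+ATP replicate 1 or 2 (adjusted p = 0.0713 and 0.11). The call of Ada was also lost when the 6 libraries were fitted alone (adjusted p = 0.055). Altogether 2 of 25 tested genes of this list were called higher in AMP and 2 higher in ENPP1+ATP. Of 12 tested purinergic and adenosine receptors 1 was called, the adenosine A1 receptor Adora1, at 15.7, 14.1 and 13.1 CPM in AMP and 17.5, 19.4 and 17.3 CPM in ENPP1+ATP (adjusted p = 0.0179), and it was lost without AMP replicate 2 or 3 (adjusted p = 0.0671 and 0.0995) or without ENPP1+ATP replicate 2 (adjusted p = 0.126).

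Pyrophosphate is made from ATP by ENPP1 and not from AMP, and 3 of 14 tested genes of phosphate and pyrophosphate handling were called. Ankh, a membrane protein that raises extracellular pyrophosphate, was at 69.9, 71.5 and 74.7 CPM in AMP and 93.1, 94.5 and 90.1 CPM in ENPP1+ATP (1.29-fold higher in ENPP1+ATP, adjusted p = 2.63e-06). Vehicle libraries were at 72.5, 71.9 and 68 CPM and ATP libraries at 77.8, 78.2 and 68 CPM, so that the ENPP1+ATP libraries lay above those of the other 4 media. The phosphate transporter Slc20a2 had a log2 fold change of -0.15 (adjusted p = 0.0165), lost without AMP replicate 2 (adjusted p = 0.0588) or ENPP1+ATP replicate 3 (adjusted p = 0.129), and the mitochondrial pyrophosphatase Ppa2 had 0.25 (adjusted p = 0.0452), lost without AMP replicate 1 or 2 or any 1 of the ENPP1+ATP replicates (adjusted p between 0.0745 and 0.196). The call of Ppa2 was also lost in DESeq2 (adjusted p = 0.0706).

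Nucleotide synthesis and salvage had called genes in both directions. Umps, which makes uridine monophosphate, was at 55.1, 60 and 56.2 CPM in AMP and 58.5, 56.6 and 56.7 CPM in ENPP1+ATP (adjusted p = 0.983). Of 22 tested genes of pyrimidine synthesis and salvage, 4 were called higher in AMP and 1 higher in ENPP1+ATP (2 and 3 without ENPP1+ATP replicate 2), with Ctps1, CTP synthase, at 178, 178 and 161 CPM against 145, 142 and 147 CPM (adjusted p = 5.42e-05) and Upp1, uridine phosphorylase, at 20.7, 23.6 and 26 CPM against 32.4, 27.6 and 32.1 CPM (adjusted p = 0.00117). Tk1, Tyms and Dck are the others of the 4. The kinase Dck, which starts deoxynucleoside salvage, had a log2 fold change of 0.39 (adjusted p = 0.0271), and this call was lost without ENPP1+ATP replicate 2 (adjusted p = 0.283) and without AMP replicate 1 or 2 (adjusted p = 0.0561 and 0.147). Of 34 tested genes of purine synthesis and salvage, 5 were called higher in AMP and 2 higher in ENPP1+ATP, with a median of 0.00. These counts fell to 3 in AMP without AMP replicate 1 or 2 or ENPP1+ATP replicate 1, and to 0 or 1 in ENPP1+ATP without any 1 library. Aprt, which turns adenine into AMP, was at 100.4, 106 and 104 CPM in AMP and 91.6, 92.5 and 90.4 CPM in ENPP1+ATP (log2 fold change 0.18 ± 0.05 SE, adjusted p = 0.011, and 0.0705 without AMP replicate 2).

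Energy metabolism and stress lists had smaller numbers of called genes, and many of these counts moved when 1 library was left out. Oxidative phosphorylation had 7 of 55 called higher in AMP, none higher in ENPP1+ATP and a median of 0.07, with Ndufs1, a complex I subunit, at 549, 557 and 503 CPM against 468, 463 and 483 CPM (adjusted p = 0.00121), but the count was 12 without AMP replicate 3, 2 and 1 without AMP replicates 1 and 2, and 4, 3 and 3 without ENPP1+ATP replicates 1, 2 and 3. Fatty acid oxidation and PPAR targets had 6 of 37 called higher in AMP and 2 higher in ENPP1+ATP, and these counts were 3 in AMP without AMP replicate 2 and 1 in ENPP1+ATP without AMP replicate 3 or ENPP1+ATP replicate 1 or 2. Lpl, lipoprotein lipase, was 1.24-fold higher in AMP (adjusted p = 3.36e-05), and Plin2, which coats lipid droplets, was 1.25-fold higher in ENPP1+ATP (adjusted p = 2.63e-06). Glycolysis and hypoxia genes had 4 called higher in AMP and 3 higher in ENPP1+ATP of 35, and these counts were 6 in AMP without AMP replicate 3, 2 in AMP without AMP or ENPP1+ATP replicate 2, and 1 in ENPP1+ATP without AMP replicate 1, 2 or 3 or ENPP1+ATP replicate 1 or 3. Genes of the endoplasmic reticulum folding list had 4 called higher in AMP and 2 higher in ENPP1+ATP of 28 (1 without ENPP1+ATP replicate 1 or 2), with Hsp90b1 at 545, 529 and 553 CPM against 460.0, 466 and 458 CPM (adjusted p = 1.57e-05) and Calr 1.16-fold higher in AMP (adjusted p = 2.85e-05). Targets of ATF4, the factor of the integrated stress response, had 3 called higher in AMP and 1 higher in ENPP1+ATP of 34 (2 without AMP replicate 1), the latter being Trib3, at 23.9, 27.1 and 19.8 CPM in AMP and 35.4, 30.7 and 35.1 CPM in ENPP1+ATP (1.42-fold higher in ENPP1+ATP, adjusted p = 8.84e-05), with vehicle above both at 70.1, 74.2 and 76.1 CPM. NRF2 targets had 1 of 28 called in each direction; the count in AMP was 3 without AMP or ENPP1+ATP replicate 3, and that in ENPP1+ATP was 0 without AMP replicate 1 or ENPP1+ATP replicate 1 or 3 and 2 without AMP or ENPP1+ATP replicate 2. Metal-response genes had 1 of 14 called in each direction, and the 1 higher in ENPP1+ATP, the iron hormone gene Hamp, was lost without AMP replicate 2 or 3 or any 1 of the ENPP1+ATP replicates (adjusted p between 0.0633 and 0.191).

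Heat shock genes had 1 called higher in AMP, Hspd1, and 2 higher in ENPP1+ATP, Hspa1b and Bag3, of 18. Bag3, a co-chaperone, was 1.13-fold higher in ENPP1+ATP (adjusted p = 0.00158). The call of Hspa1b was lost in DESeq2 (adjusted p = 0.0592) and without AMP replicate 1 or 2 or ENPP1+ATP replicate 2 or 3 (adjusted p between 0.0705 and 0.165), and that of Hspd1 without AMP replicate 1 or 2 or ENPP1+ATP replicate 2 (adjusted p between 0.0550 and 0.148). Glucocorticoid and FOXO genes had 1 called higher in AMP, Igfbp3, and 3 higher in ENPP1+ATP of 25 (1 without AMP or ENPP1+ATP replicate 2), and of 17 clock genes Cry2 was called, 1.21-fold higher in ENPP1+ATP (adjusted p = 9.08e-05), with 2 called without AMP replicate 1 or 2. The glucocorticoid and FOXO list had a median of -0.11, with 5 of 25 log2 fold changes above 0. The clock list had a median of -0.12, with 3 of 17 above 0. These medians were near those of the immediate early and inflammatory lists.

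Few genes of protein synthesis and turnover were called. None of 68 tested ribosomal protein genes was called (median 0.00, range -0.23 to 0.13), and 1 of 37 ribosome biogenesis genes (Pes1) and 2 of 34 proteasome and atrogene list members (Trim54 and Fbxo32) were called higher in ENPP1+ATP. When single libraries were left out, 0 or 1 ribosomal protein gene was called higher in ENPP1+ATP. The calls of Pes1 and Fbxo32 were each lost when any of several single libraries was left out, with adjusted p up to 0.109 for Pes1 (without ENPP1+ATP replicate 3) and 0.207 for Fbxo32 (without AMP replicate 3).

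The genes that parted the media were then placed by their levels in the other media. Of the 782 genes higher in AMP, the mean of the ATP libraries lay below both media for 305 (39.0%), between them for 299 (38.2%) and above both for 178 (22.8%). Over all 13461 tested genes these shares were 37.1%, 21.4% and 41.5%. Of the 518 genes higher in ENPP1+ATP, ATP lay above both media for 222 (42.9%), between them for 223 (43.1%) and below both for 73 (14.1%). For both sets of genes, the ATP mean was thus more often beyond the ENPP1+ATP mean than beyond the AMP mean, a description only, since these positions use the libraries by which the genes were called. In ATP against vehicle, a comparison that shares no library with AMP against ENPP1+ATP, 8067 genes (59.9%) were called. Among them 369 of the 782 genes (47.2%) were lower and 249 (31.8%) higher, against 29.7% and 30.2% of all tested genes. Of the 518 genes, 205 (39.6%) were called higher in ATP than in vehicle and 182 (35.1%) lower. ENPP1 against vehicle, which also shares no library with the comparison, had 0 called genes in edgeR and 0 in DESeq2, and 693 of 13461 genes had an unadjusted p under 0.05. Since no gene at all was called there, the absence of calls says nothing particular to the genes that parted AMP from ENPP1+ATP. Without the filter, 1 gene was called higher and 13 lower in ENPP1 medium. With only the compared libraries fitted, 5 were called lower. Vehicle means lay below both media for 309 of the 782 genes (39.5%), between them for 174 (22.3%) and above both for 299 (38.2%), and for the 518 genes these were 165 (31.9%), 129 (24.9%) and 224 (43.2%). Over all tested genes the shares were 44.7%, 12.3% and 43.0%.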

How the data were processed

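RNA-seq of total RNA from NRVM was analysed in 15 libraries, 3 for each of 5 media. The authors deposited raw read counts per gene for 20158 genes. The submitters' processing notes name STAR 2.5.3a and the rat build rn6 without roles; the counting program, annotation and strand setting are not given in the sources used here, so overlapping and near-identical genes may share reads.

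Libraries were assigned to media by their labels. The gene counts were tested with edgeR 4.0.16 and limma 3.58.1, run under R 4.3.3. Low-count genes, 6697 in all with 0.0556% of counts, were left out by filterByExpr, libraries were scaled by TMM, and 1 quasi-likelihood model with medium as factor was fitted to all 15 libraries (13461 genes). P-values were adjusted over all 13461 genes by Benjamini-Hochberg, with a threshold of 0.05. CPM were computed from the counts with TMM-scaled library sizes, and fold changes are of fitted values with their standard errors. Totals of the 6 compared libraries were 13980922 to 15615626 counts, and the common biological coefficient of variation was 0.0499. The test was also tested on simulated data.

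Named genes were the 12 with the largest fold change in each direction (called, mean log2 CPM of at least 2, no overlap of libraries, unnamed loci passed over, which affected 1 gene), up to 4 called genes per list, the genes of the study's question (Enpp1, Nt5e, Aprt, Adk, Umps, Bax, Bak1, Bcl2, Cdkn1a and Mdm2) and the markers. Further members are named where a count was small or a call was lost, after their values were seen. Some genes named by this rule are not reported here. The members and the 39 gene lists were chosen with earlier results of these data known. Alternatives were DESeq2 1.42.0, edgeR with RLE size factors, no filter, a mean CPM of at least 5, the compared libraries alone, the replicate number as a block and leaving out each library. Cardiac fibroblast and single-cell samples were not used here.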

Additional observations from a re-analysis of the deposited data

How the results depend on the processing

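For AMP against ENPP1+ATP, the 782 and 518 genes called higher in AMP and in ENPP1+ATP became 745 and 443 with DESeq2, 805 and 515 with RLE size factors, 808 and 613 without the filter, 743 and 507 at a mean CPM of at least 5, and 746 and 508 with the 6 libraries fitted alone. Leaving out each library in turn gave 584 to 753 and 348 to 464 genes. No gene was called in opposite directions by the original fit and any of these alternatives. With the replicate number as a block the counts were 825 and 547, of which 771 and 510 were shared. The labels do not say that equal numbers mark a shared culture. Deviations of equally numbered AMP and ENPP1+ATP libraries correlated at 0.06, -0.14 and -0.05. With 3 libraries per medium, these values cannot show whether the samples were paired. For ENPP1 against vehicle, 1 gene was called higher and 13 lower without the filter, and 5 were called lower when only the compared libraries were fitted; the cause was not tested. Over all settings the medians of the sarcomere, cholesterol, fatty acid synthesis, cell cycle, matrix, p53, immediate early and inflammatory lists kept their sign. The small medians of ribosome biogenesis (-0.02) and of lysosome and autophagy (0.03) kept theirs as well. A kept sign thus does not mark out the lists named first. Without the filter all 20158 genes were tested, and 737 and 511 of the original calls were shared. The genes left out by the filter held 0.0556% of counts, which limits the precision of their values.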
